A study of Mus musculus with 5 samples.

Results

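The integrated stress response genes described here are 10 genes of the Atf4 pathway, Atf4, Atf5, Ddit3, Ddit4, Chac1, Trib3, Asns, Psat1, Sesn2 and Vldlr, taken by name from a table of 39056 counted genes. RNA was sequenced from LSK cells (lineage-negative, Sca-1-positive, Kit-positive), the marrow fraction that holds blood stem cells and multipotent progenitors, of C57BL/6 mice at postnatal day 15. 3 libraries came from Gabbr1 null mutant mice, which carry a mutation in a subunit of the GABA-B receptor, and 2 from wild-type (WT) mice, with about 12000 sorted cells each. The comparison asks how expression in these progenitors differs when Gabbr1 is mutated in the animal. The mutation is not described further in the sources used here. The labels give 4 animals a genotype in one place and the numbers of libraries in another, without tying libraries to animals. Sex-linked counts, given below, differ between null library 1 and the other null libraries, so the null libraries are not all from the same animal. Among the remaining libraries, the spread that p-values rest on may be technical.

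The integrated stress response is a shared answer of cells to amino acid shortage, misfolded protein in the endoplasmic reticulum, viral RNA or lack of haem. Kinases that sense these states phosphorylate the translation factor eIF2, which lowers protein synthesis in general while the mRNA of Atf4 is translated more. The Atf4 protein, a basic leucine zipper transcription factor, then raises genes of amino acid supply, of redox balance and, under lasting stress, of cell death. Because that step is translational, the amount of Atf4 mRNA does not measure the amount of Atf4 protein. In blood stem cells this pathway is known for its role in keeping protein synthesis low and in the choice between recovery and death under stress.

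Atf4 binds, as a dimer with C/EBP proteins, to a composite site with the core TGATGNAA, and the bases around this core are shown to tell which members carry it next to a gene start. RefSeq promoter windows on mm10 (GRCm38.p6), 250 bases before to 50 after a start, were found for all 10 members, 13 windows in all, and searched on both strands. The core was present in 4 of the 13 windows, in Chac1, Trib3, Asns and Vldlr, and in 3.97% of all 32851 windows. A match is a description of the letters and not a bound site. The 30 bases around each match are printed on the strand where the core reads TGATGNAA, with the core in capitals.
Chac1: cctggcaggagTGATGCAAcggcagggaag
Trib3: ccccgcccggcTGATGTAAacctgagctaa
Asns: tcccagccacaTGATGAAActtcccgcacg
Vldlr: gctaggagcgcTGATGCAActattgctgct
These lie at chr2:119351038-119351067 (minus strand printed), chr2:152344028-152344057 (plus), chr6:7693214-7693243 (minus) and chr19:27216809-27216838 (minus). In the direction of the gene, the first base of the core was 193 bases before the RefSeq start of Chac1 and 23 before that of Asns. It was 200 before the downstream of the 2 listed RefSeq starts of Vldlr, and at base 15 after that of Trib3. The GENCODE gene coordinates given below differ from these starts. By those, the cores of Asns and Vldlr lie within the gene, and those of Chac1 and Trib3 before it. The core of Vldlr and that of Chac1 were the same 8 letters. The members lie on 7 chromosomes, and none on chromosome 17 with Gabbr1.

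Library totals were 6972753 to 8150774 counts, and 1 CPM stood for 7.02 to 8.13 counts. Gabbr1 was at 33.0 to 38.5 CPM (counts relative to the TMM-scaled library total) in null and 49.5 to 57.4 CPM in WT (log2 fold change -0.59, edgeR quasi-likelihood test with Benjamini-Hochberg adjusted p = 0.0361), and since the mutated part is not given, these counts neither check nor contradict the labels. Gabbr1 missed the threshold when either WT library, or null library 2 or 3, was dropped (edgeR adjusted p = 0.0722, 0.380, 0.0802 and 0.137). Kit and Ly6a, whose products define the gate, were read in every library. Null library 1 was the only one with Xist counts above 21 and without counts of 4 Y-linked genes. With sex, read from these genes, as a covariate the log2 fold change of Vldlr was -1.09 (edgeR adjusted p = 0.000445). Because null library 1 alone carries the other sex, this fit cannot separate sex from that library. It came close to leaving that library out (log2 fold change -1.09, edgeR adjusted p = 0.000441).

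Of the 10 members, 9 had enough counts to be tested, and 1 of them, Vldlr, was lower in null (edgeR quasi-likelihood test, Benjamini-Hochberg adjusted p under 0.05 over all genes tested). None was higher. Over the 13467 genes tested, 2.48% were called in either direction, 0.334% lower and 2.15% higher. 2 members, Vldlr and Atf5, were lower at an unadjusted p under 0.05 and 0 were higher, against 4.84% and 7.99% of all tested genes. The median log2 fold change of the 9 was -0.20, and that of all tested genes was -0.0045. Null libraries lay below both WT libraries for Vldlr, Atf5, Atf4 and Trib3, as they did for 13.7% of all tested genes (29.2% did not overlap in either direction), and for Trib3 the gap was between values that both round to 3.70 CPM. DESeq2 and limma-voom each called the same numbers of members, 1 lower and 0 higher.

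**Figure D1:**
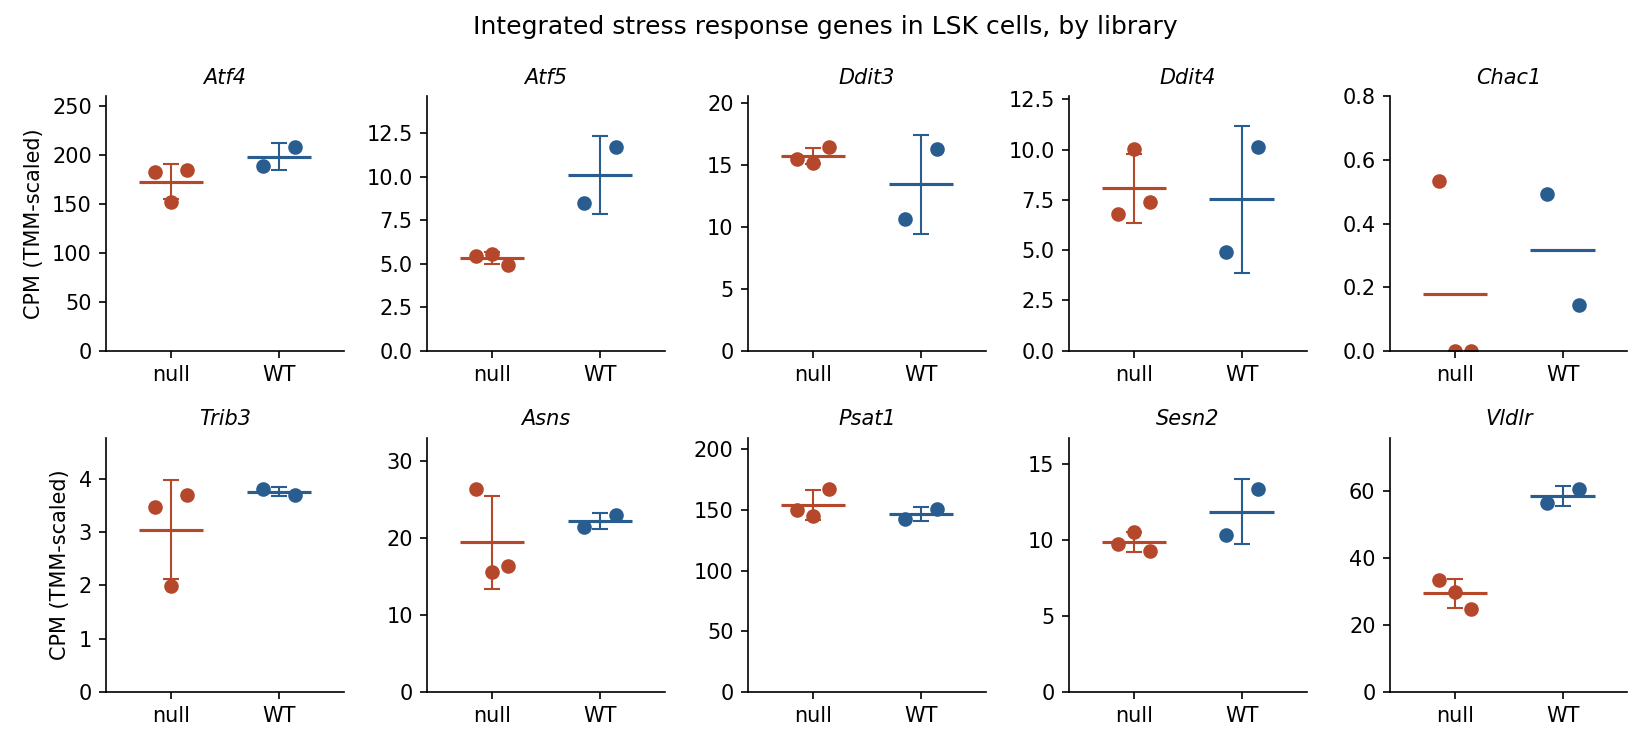
CPM (TMM-scaled) of each of the 10 members in every library, null left and WT right; points are libraries, horizontal lines are group means and bars are SD (not drawn for Chac1). Vldlr lay between 24.8 and 33.4 CPM in the null libraries and between 56.2 and 60.7 CPM in the WT libraries.

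Vldlr encodes the very low density lipoprotein receptor, which takes up triglyceride-rich lipoproteins and, as a receptor for reelin, signals in the brain. It is raised by Atf4 under stress in other cells. It lies on chromosome 19, 27216484 to 27254231 (plus strand, mm10, ENSMUSG00000024924.14). Vldlr was at 33.4, 30.0 and 24.8 CPM in null libraries 1, 2 and 3, against 56.2 and 60.7 CPM in WT libraries 1 and 2. Each null library was well below each WT library, and the groups were apart by more than their own width. The mean was 29.4 ± 4.36 CPM in null (SD, n = 3) and 58.5 ± 3.13 CPM in WT (SD, n = 2). The log2 fold change was -0.99 ± 0.15 (SE; adjusted p in edgeR 0.00282). The null level was 0.503 of the WT level, with a 95% interval of 0.404 to 0.626. These values rest on 201 to 251 counts per null library and 426 to 457 per WT library. Without WT library 2 the log2 fold change was -0.94 and no longer passed. Without WT library 1 it was -1.06 and passed narrowly. Each of these fits rests on 1 WT library, so the spread within WT is not seen in them. Vldlr passed without each null library.

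Among other lipoprotein receptors no gene was called. Of 8 tested genes listed there, 0 passed in edgeR in either direction, 0 had an unadjusted p under 0.05 and their log2 fold changes lay between -0.24 and 0.20. The one with the lowest p was Lrp5, a co-receptor of Wnt signalling, at 161 ± 10.3 CPM in null (SD, n = 3) and 181 ± 17.5 CPM in WT (SD, n = 2, edgeR adjusted p = 0.582). The difference between the change of Vldlr and that of its relatives was not tested.

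Because the libraries are bulk samples, fewer cells of a type and less RNA per cell cannot be told apart, and markers of other cells moved between the same groups. All 12 B-lineage markers were called higher, with a summed level of 784 to 1415 CPM in null and 107 to 265 CPM in WT. Of 12 endothelial and stromal markers 7 were higher and 0 lower, at 353 to 467 CPM summed in null and 237 to 267 CPM in WT, with Lepr at 0 counts in WT. The 4 tested cartilage markers were all higher. Over all 7 listed cartilage genes, untested ones included, the sum was 21.9 to 158 CPM in null and 0.862 to 1.14 CPM in WT. Col2a1 and Acan had 0 counts in WT, and Sox9 had 0 in all 5 libraries, null included. For mature neutrophils, 8 markers were tested and 0 passed in edgeR; 8 had an unadjusted p under 0.05, all with higher values in null. Over all 10 listed neutrophil genes the sum was 2226, 594 and 132 CPM in null libraries 1, 2 and 3 and 107 to 145 CPM in WT. The summed level of 7 genes of the LSK gate was 2706 to 2920 CPM in null and 3315 to 3525 CPM in WT. Of 5 tested mast cell and basophil markers 2 were higher and 0 lower, and the sum over all 6 listed genes was 18.2 to 40.4 CPM in null and 9.26 to 10.1 CPM in WT. Of 2 tested erythroid markers and 1 of T and NK cells 0 passed in edgeR, and 1 erythroid marker had an unadjusted p under 0.05; Hba-a1 and Hba-a2 were at 0 in every library. Neutrophil, erythroid and T and NK markers had 0 calls in DESeq2 and limma-voom too, whereas the cartilage markers had 4 in DESeq2 and 0 in limma-voom. DESeq2 and limma-voom called 11 and 12 B-lineage markers higher, 6 and 6 endothelial and stromal ones, and 1 and 1 of mast cells and basophils. Of 16 tested immediate early genes 10 were lower and 0 higher in edgeR, and DESeq2 and limma-voom called 7 and 8 lower. The sum over all 19 listed immediate early genes was 653 to 973 CPM in null and 1415 to 2427 CPM in WT. The part of these cells and genes in the lower Vldlr level was not tested.

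**Figure D2:**
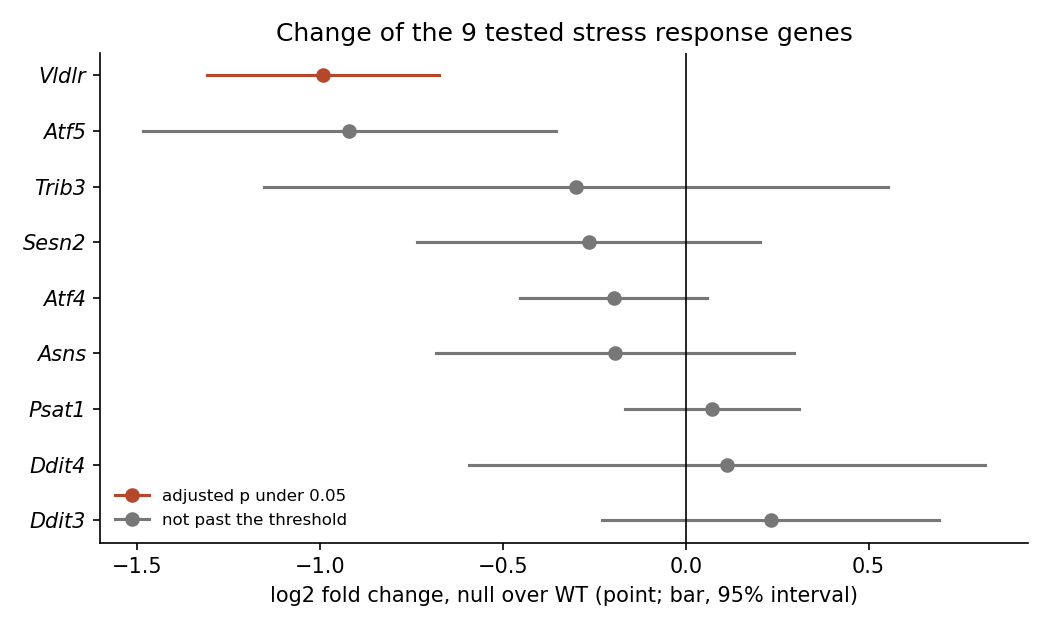
Log2 fold change of the 9 tested members, null over WT, with the 95% interval of each (not adjusted for multiple testing). The interval of Vldlr, -1.31 to -0.68, belongs to the single member past the threshold; that of Atf5, -1.49 to -0.35, also excludes 0 but its adjusted p does not pass.

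Among the regulators, Atf4 (chromosome 15, 80255184 to 80257541) was abundant and did not pass. It stood at 183, 152 and 185 CPM in null, against 189 and 208 CPM in WT. All 3 null values were below both WT values, but null library 3 and WT library 1 were close. The mean was 173 ± 18.4 CPM in null (SD, n = 3) and 198 ± 13.7 CPM in WT (SD, n = 2). The log2 fold change was -0.20 ± 0.12 (SE; adjusted p in edgeR 0.540). The 95% interval of the fold, 0.731 to 1.04, includes 1.

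Atf5, a close relative of Atf4 that is also translated under stress and acts in the mitochondrial stress response, was low and had the second lowest p of the members (chromosome 7, 44812256 to 44816658, ENSMUSG00000038539.15). It was at 5.46, 5.54 and 4.93 CPM in null, against 8.49 and 11.7 CPM in WT. The null libraries were close to each other and below both WT libraries, which differed by 1.38-fold between themselves. The log2 fold change was -0.92 ± 0.26 (SE), and its edgeR adjusted p of 0.106 did not pass. With no filter on low counts it passed (edgeR adjusted p = 0.0359, against 0.636 in the highest of the alternatives). The counts behind it were 40 to 42 per null library and 69 and 82 in WT, and 82 bases of its exons overlap Nup62 and Il4i1 on the opposite strand. Since the strand setting of the counting is not given, reads of these genes cannot be told apart there. Nup62 itself had a log2 fold change of 0.00042 (edgeR adjusted p = 0.999).

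**Figure D3:**
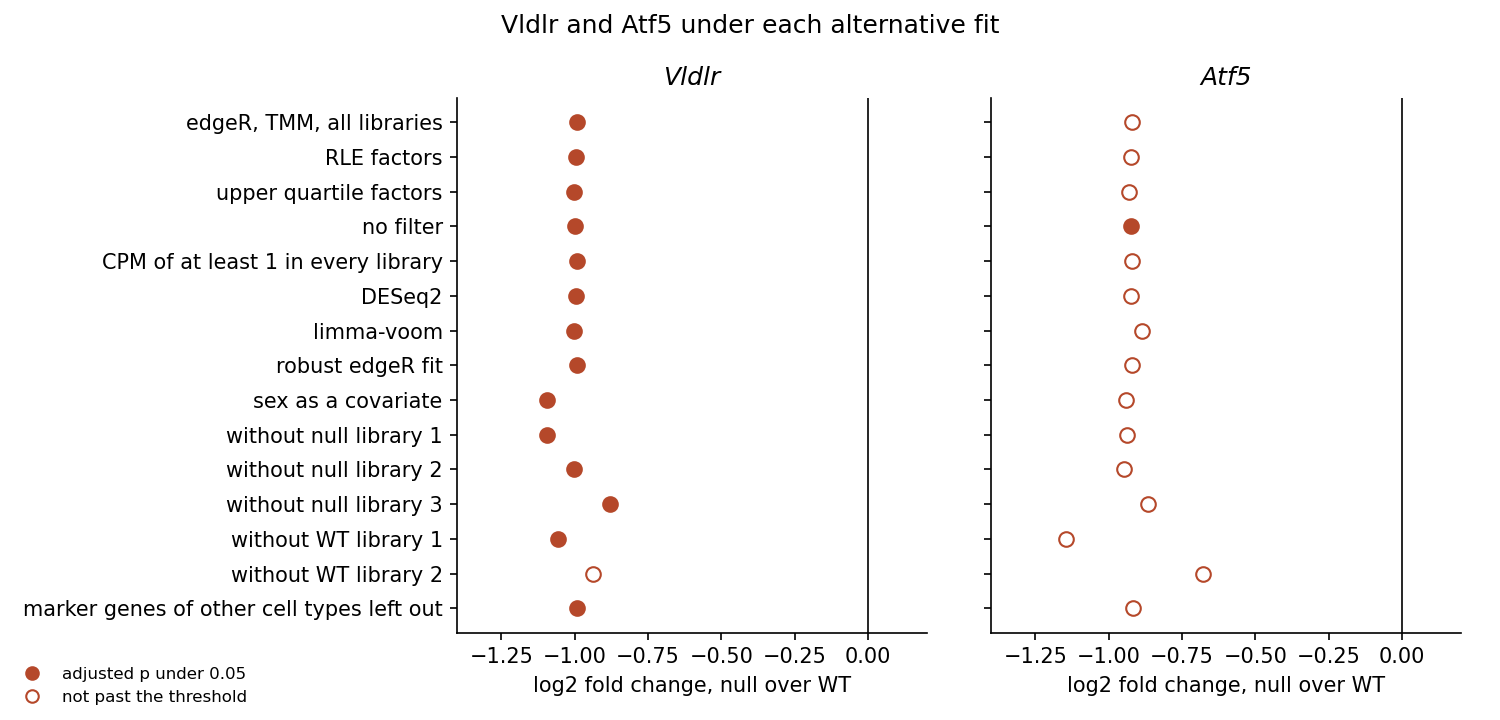
Log2 fold change of Vldlr and Atf5, null over WT, in the fit reported and in 14 alternative fits; filled points had an adjusted p under 0.05. Vldlr was filled in 13 of the 14 alternatives, all but the one without WT library 2, and Atf5 in 1, the fit with no filter.

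Ddit3 encodes CHOP, a C/EBP family factor that drives the late, death-prone arm of the response. It lies on chromosome 10, 127290774 to 127296288, and was at 15.5, 15.2 and 16.4 CPM in null, against 10.6 and 16.2 CPM in WT. WT library 2 fell among the null values and WT library 1 below them, so the groups overlapped. The log2 fold change was 0.23 ± 0.21 (SE; adjusted p in edgeR 0.730), with a 95% interval of the fold of 0.853 to 1.62. Without WT library 1 its sign turned, to -0.062. Its exons share 68 bases with Mars, a tRNA synthetase gene on the opposite strand, and 105 bases with a second gene annotated under the same symbol, which was not analysed here.

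Trib3, a pseudokinase that is induced by Atf4 and CHOP and feeds back on them, was scarce (chromosome 2, 152337422 to 152344032). It was at 3.46, 1.98 and 3.70 CPM in null, against 3.82 and 3.70 CPM in WT, from 15 to 31 counts per library. Null library 2 was the low one, and the other null libraries were close to WT. The log2 fold change was -0.30 ± 0.39 (SE; adjusted p in edgeR 0.830), and the 95% interval of the fold, 0.450 to 1.47, is wide at these counts.

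Both genes of amino acid synthesis were expressed in every library, and neither passed. Asns, asparagine synthetase and a classical Atf4 target (chromosome 6, 7675169 to 7693254), was at 26.4, 15.6 and 16.3 CPM in null, against 21.4 and 22.9 CPM in WT. Null library 1 was the highest of all 5 and the other null libraries were the lowest. Its mean was 19.4 ± 6.05 CPM in null (SD, n = 3) and 22.2 ± 1.07 CPM in WT (SD, n = 2, edgeR adjusted p = 0.803), and the 95% interval of the fold was 0.623 to 1.23. Psat1, phosphoserine aminotransferase of serine synthesis (chromosome 19, 15904678 to 15947337), was at 149.6, 145 and 168 CPM in null, against 143 and 151 CPM in WT. The groups overlapped, and with a log2 fold change of 0.07 ± 0.11 (SE; adjusted p in edgeR 0.858) and a 95% interval of the fold of 0.892 to 1.24, Psat1 had the narrowest interval of the 9 on the log2 scale.

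The inhibitors of mTORC1, the growth kinase that answers to amino acids, did not pass either. Ddit4, or REDD1, which acts through the TSC complex (chromosome 10, 59949669 to 59951834), was at 6.80, 10.0 and 7.40 CPM in null, against 4.92 and 10.1 CPM in WT. The 2 WT libraries enclosed all null values, differing 2.05-fold. Its log2 fold change was 0.11 ± 0.32 (SE; adjusted p in edgeR 0.935), and its sign turned without WT library 1 and without null library 2. The 95% interval of the fold was 0.664 to 1.76. Sesn2, sestrin 2, a leucine sensor upstream of mTORC1 (chromosome 4, 132492032 to 132510501), was at 9.73, 10.6 and 9.25 CPM in null, against 10.3 and 13.4 CPM in WT. WT library 2 was the high one, and WT library 1 lay among the null values. The log2 fold change of Sesn2 was -0.27 ± 0.22 (SE; adjusted p in edgeR 0.685), with a 95% interval of the fold of 0.600 to 1.15.

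Chac1, a glutathione-degrading enzyme that is among the more strongly induced Atf4 targets, was at the limit of detection (chromosome 2, 119351229 to 119354381). It had 4, 0 and 0 counts in null libraries 1, 2 and 3, against 4 and 1 counts in WT libraries 1 and 2. Summed over the group this was 0.172 CPM in null (exact Poisson 95% interval 0.0470 to 0.442) and 0.330 CPM in WT (0.107 to 0.770), which covers counting error only. A count of 0 allows 3 counts, or 0.370 to 0.396 CPM in the null libraries that had none. A difference was not detectable at this depth. Other strongly inducible genes of the response were also low: Fgf21 had 0 counts in every library, and Atf3, Nupr1, Gdf15 and Stc2 had 0 to 6, which are named after their values were seen.

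Per length of merged exons and averaged over all 5 libraries, Atf4 was the most abundant member at 77.7 ± 8.56 RPKM (SD, n = 5), followed by Psat1 at 35.5 ± 2.31 RPKM. Ddit3 at 8.62 ± 1.40 RPKM and Asns at 7.50 ± 1.67 RPKM did not differ beyond their spread. Ddit4, Vldlr, Atf5 and Sesn2 followed between 4.47 and 3.07 RPKM, in an order of group means that differed between genotypes. In null, Ddit4 averaged 4.60 RPKM, Vldlr 2.92, Sesn2 2.83 and Atf5 2.67 RPKM, whereas in WT Vldlr averaged 5.81 RPKM, Atf5 5.06, Ddit4 4.28 and Sesn2 3.41 RPKM. The order also changed within a genotype. Ddit4 was below Sesn2 in WT library 1 (2.81 against 2.98 RPKM) and above it in WT library 2 (5.76 against 3.85 RPKM). Vldlr was above Sesn2 in null library 1 (3.32 against 2.80 RPKM) and below it in null libraries 2 and 3. Trib3 was at 1.57 ± 0.361 RPKM and Chac1 at 0.143 RPKM. Atf4 thus had a level above that of 96.4% of tested genes, Psat1 above 90.4% and Trib3 above 17.3%. The order of Ddit4 and Vldlr over all 5 libraries turned when the longest transcript was taken as the length.

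The WT libraries differed from each other in some of these genes. 8 of the 9 tested members were higher in WT library 2 than in WT library 1, where 49.7% of all tested genes were. The ratio was 2.05 for Ddit4, 1.53 for Ddit3, 1.38 for Atf5 and 1.29 for Sesn2. It was small for Atf4 (1.10), Vldlr (1.08), Asns (1.07) and Psat1 (1.06), and the exception, Trib3, differed by 0.970-fold. WT library 2 also had the higher sum of immediate early genes, 2427 CPM against 1415 CPM in WT library 1. Among the null libraries, library 2 was the lowest in 5 of the 9 members, and in 33.4% of all tested genes.

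The pathway upstream of Atf4 showed a single called gene. The 17 tested genes of the eIF2 kinases, phosphatases and eIF2 complex had a median log2 fold change of 0.0090. Of these, 1 was lower and 0 higher, against 0.334% and 2.15% of all tested genes. The gene was Ppp1r15a, or GADD34, which brings a phosphatase to eIF2 and ends the response, and which also belongs to the immediate early list. It was at 31.2, 29.4 and 34.0 CPM in null, against 45.4 and 74.2 CPM in WT. All null values were below WT, and WT library 2 was far above WT library 1. Its log2 fold change was -0.92 ± 0.18 (SE; adjusted p in edgeR 0.0193), which became -0.53 without WT library 2 and did not pass (edgeR adjusted p = 0.350).

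None of the 4 eIF2 kinases passed. Eif2ak3 (PERK, the sensor of the endoplasmic reticulum) was at 51.9 ± 0.663 CPM in null (SD, n = 3) and 44.0 ± 0.603 CPM in WT (SD, n = 2, edgeR adjusted p = 0.417). Its null libraries lay above both WT libraries, as did those of Eif2ak1 and those of 15.5% of all tested genes. Eif2ak2 (PKR, the sensor of double-stranded RNA) was at 43.8 ± 5.01 CPM in null and 50.7 ± 2.62 CPM in WT (SD, n = 3 and 2, edgeR adjusted p = 0.562). For Eif2ak1 (the haem sensor HRI) the log2 fold change was 0.08 ± 0.10, and for Eif2ak4 (the amino acid sensor GCN2) 0.05 ± 0.11 (SE; adjusted p in edgeR 0.823 and 0.911).

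Further genes under Atf4 gave 1 call, where 2.48% of all tested genes were called in either direction. Of 8 tested amino acid transporters 0 passed, with 0 higher and 1 lower by unadjusted p, and the lowest p was that of Slc3a2, the heavy chain of several transporters, at 97.6 ± 2.64 CPM in null and 127 ± 16.0 CPM in WT (SD, n = 3 and 2, edgeR adjusted p = 0.117, 0.0498 with no filter and up to 0.545 in the other alternatives). Of 13 cytosolic tRNA synthetases 0 passed and 0 had an unadjusted p under 0.05. 10 of the 13 had a negative log2 fold change, between -0.19 and 0.07 over the list, against 50.8% of all tested genes. Of 10 tested genes of serine, one-carbon and amino acid synthesis 1 was higher and 0 lower. It was Bcat1, an aminotransferase of branched-chain amino acids, at 16.8, 16.9 and 17.8 CPM in null, against 3.82 and 2.28 CPM in WT. The null libraries were close together and all above WT, with a log2 fold change of 2.47 ± 0.26 (SE; adjusted p in edgeR 0.000430), a call that held in each of 14 alternatives. The part of the B-lineage, stromal and other markers given above in the Bcat1 level was not tested. Of 10 tested effectors such as C/EBP beta 0 passed, 1 was lower at an unadjusted p under 0.05 (Cebpb, edgeR adjusted p = 0.357), and the median log2 fold change was -0.17.

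**Figure D4:**
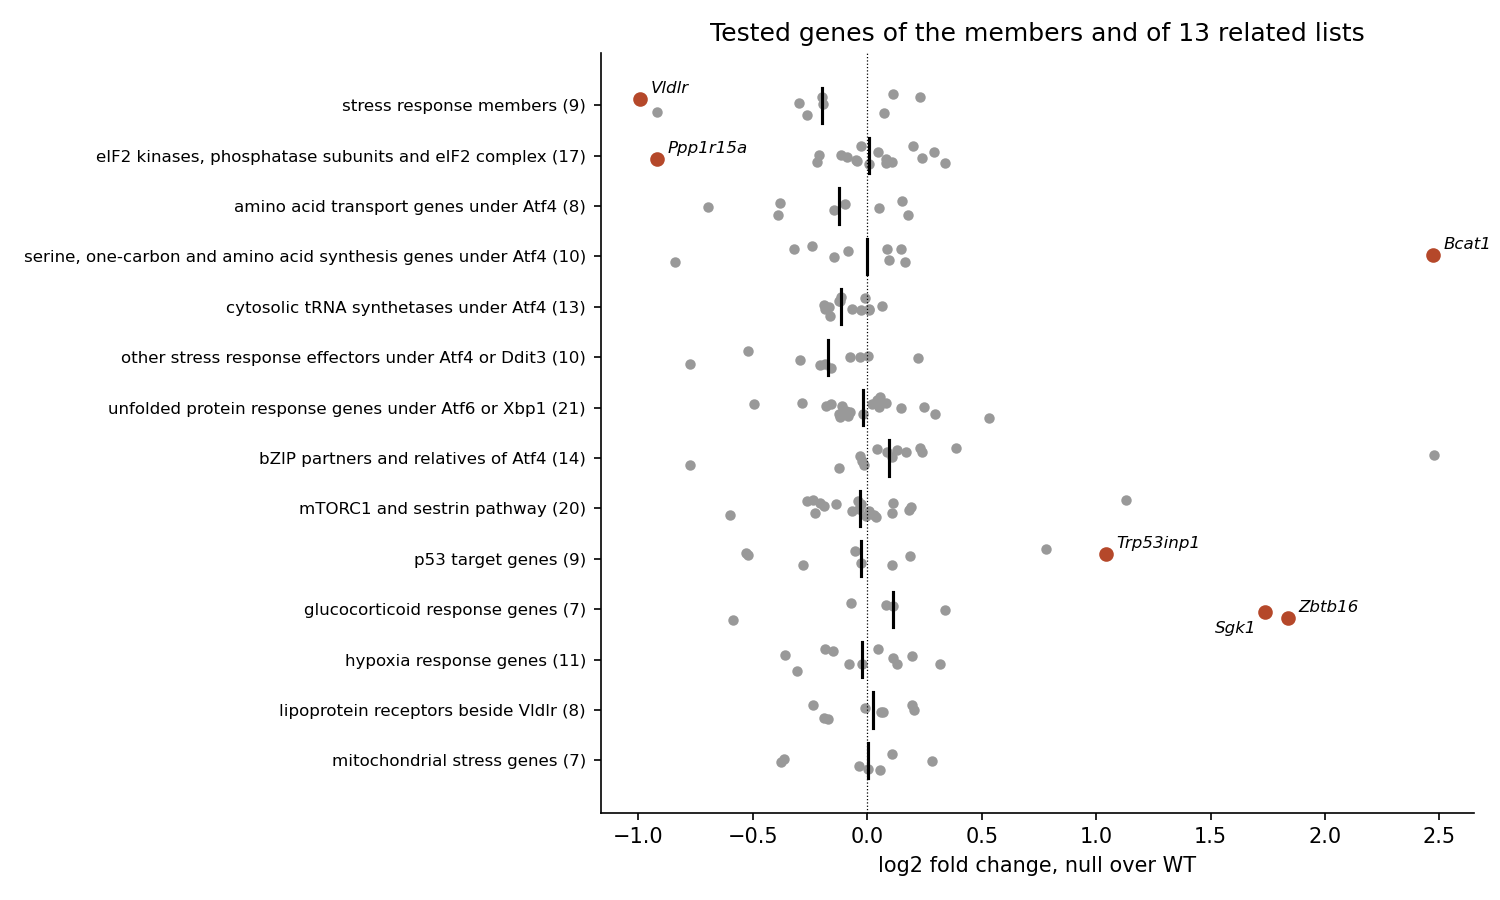
Log2 fold change, null over WT, of the tested members and of the tested genes of 13 related lists (number tested in brackets); black bars are medians and coloured points are genes with an adjusted p under 0.05. Vldlr and Ppp1r15a were lower and Bcat1, Trp53inp1, Sgk1 and Zbtb16 higher; medians lay between -0.20 and 0.11.

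No gene was called in the parallel branches of stress signalling in the fit reported. Of 21 genes of the unfolded protein response under Atf6 or Xbp1 0 passed. At an unadjusted p under 0.05, 3 of them were higher and 0 lower in null, against 7.99% and 4.84% of all tested genes. The lowest p was that of Syvn1, a ubiquitin ligase of the endoplasmic reticulum (log2 fold change 0.53 ± 0.14 SE, edgeR adjusted p = 0.0834). Syvn1 passed in 3 of 14 alternatives, with no filter, in the robust fit and without null library 2 (edgeR adjusted p = 0.00545, 0.0397 and 0.0383), and its adjusted p reached 0.278 in the others. Of 14 tested relatives and partners of Atf4 0 passed, with 1 higher and 1 lower by unadjusted p, and the lowest p was that of Cebpe, a granulocyte factor, at 4.00, 2.38 and 0.493 CPM in null, against 0.492 and 0.285 CPM in WT (edgeR adjusted p = 0.221). It passed in 2 of the 11 alternatives that gave a value, with no filter and without null library 3 (edgeR adjusted p = 0.0162 and 0.0286), against 0.726 in the highest. Among the null libraries Cebpe was highest in library 1 and lowest in library 3, as was the sum of the neutrophil markers, whose part in it was not tested. Of 20 genes of the mTORC1 and sestrin pathway 0 passed and 0 had an unadjusted p under 0.05, with Ddit4l, a relative of Ddit4, the lowest in p (edgeR adjusted p = 0.451). Of 7 tested mitochondrial stress genes 0 passed and 1 was lower by unadjusted p, with Oma1, a protease that relays mitochondrial stress to the kinases, lowest in p (edgeR adjusted p = 0.375).

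The remaining calls were on the lists of p53 targets and of glucocorticoid-responsive genes. Of 11 hypoxia genes 0 passed, 1 was higher and 1 lower by unadjusted p, with Ndrg1 lowest in p (edgeR adjusted p = 0.351). Of 9 tested p53 targets 1 was higher and 0 lower, Trp53inp1, a stress-induced nuclear protein, at 77.2 ± 16.4 CPM in null and 37.3 ± 5.49 CPM in WT (SD, n = 3 and 2, edgeR adjusted p = 0.00724). Of 7 glucocorticoid-responsive genes 2 were higher and 0 lower. By unadjusted p 2 were higher and 1 lower, and the median log2 fold change of the list was 0.11. The kinase gene Sgk1 was at 33.3 ± 14.7 CPM in null and 9.99 ± 0.375 CPM in WT, and Zbtb16, a transcription factor, at 8.27 ± 1.31 CPM in null and 2.29 ± 0.418 CPM in WT (SD, n = 3 and 2, edgeR adjusted p = 0.0123 and 0.00933). Leaving out WT library 1 ended all 3 of these calls (edgeR adjusted p = 0.0686, 0.151 and 0.0702 for Trp53inp1, Sgk1 and Zbtb16), as did leaving out WT library 2 (0.259, 0.313 and 0.202). Sgk1 also missed the threshold in limma-voom (adjusted p = 0.0604) and in the robust edgeR fit (adjusted p = 0.192). The part of the B-lineage, stromal and other markers given above in the levels of Trp53inp1, Sgk1 and Zbtb16 was not tested. Over the 144 tested genes of all these lists that are not members, 4 were higher and 1 lower in edgeR. Over all tested genes, 2.15% were higher and 0.334% lower in edgeR. For the same 144 genes, DESeq2 gave 4 higher and 1 lower and limma-voom 3 and 1. Each list with 0 calls in edgeR had 0 in both other tools. Ddit4, a member that also stands on the glucocorticoid and hypoxia lists, did not pass.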

How the data were processed

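Counts of RNA-seq reads per gene were deposited by the authors without normalization, 1 column per library, for 3 null and 2 WT libraries. Per the labels' protocols, each library was made by ribosomal depletion, with 3.6 to 5 ng RNA as input, and was read at 50 bp from both ends. Alignment and counting used STAR, featureCounts and mm10, per the submitters' processing notes. Annotation release, strand setting and handling of multi-mapped reads: not given in the sources used here. Of the identifiers 99.5% matched GENCODE M21, which gave symbols, lengths and coordinates. Mars stands for Mars1 by RefSeq synonym, and Ahsp matched no gene.

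Genes were filtered with filterByExpr, scaled with TMM and tested with edgeR 4.0.16 (R 4.3.3) on a design of genotype alone. Standard errors come from the F statistic, and 95% intervals from them. DESeq2 1.42.0 and limma 3.58.1 were alternatives. The members and lists were chosen with earlier results of these data known. Named genes are the members, Gabbr1, and in each list the genes past the threshold and the lowest p. The 4 kinases are named as a class. Tested on simulated data of the same layout (null over WT, 13199 genes), the fit recovered 19.7% of 1.5-fold, 75.4% of 2-fold and 93.7% of 4-fold changes. The simulated spread followed the mean level of a gene alone, without shifts in cell mixture. These rates pool genes of all levels and are not rates for the low members. No 2 libraries of a group agreed within sampling noise. Alternatives were other scaling factors, no filter, a stricter one (every library at 1 CPM or more), a robust fit, sex as a covariate, an adjusted p of 0.1, each library left out, and, chosen after seeing the data, marker genes of other cell types left out. Calls within the list of LSK gate genes are not reported here.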

Additional observations from a re-analysis of the deposited data

How the results depend on the processing

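Of the 9 tested members, 7 kept the sign of their log2 fold change in all 14 alternative fits. With 1 library left out, Ddit3 ranged from -0.062 (without WT replicate 1) to 0.57 (without WT replicate 2), and Ddit4 from -0.34 to 0.71 over the same fits, with -0.07 without null replicate 2; neither passed in any fit. Members called lower numbered 2 with no filter, where Atf5 joined Vldlr, and 0 to 1 over the fits that leave out 1 library. Over all genes, no filter gave 602 higher and 155 lower, CPM of at least 1 in every library gave 173 higher, and the looser threshold of 0.1 gave 81 lower. Leaving out 1 library gave 32 to 316 higher and 0 to 51 lower. Both minima came without WT replicate 2. In that fit and in the one without WT replicate 1 alike, the lone WT library has to be taken as varying like null libraries do. Over all related lists, 4 were higher and 1 lower in the fit reported, 7 and 3 with no filter, and 1 to 5 and 0 to 1 with 1 library left out. With the longest transcript as length, 8 of 9 neighbours in the order of levels stayed in order. The cause of these changes was not tested. Leaving marker genes of other cell types out does not touch the counts of the members, so that fit says nothing on cell mixture. No paired analysis was possible because replicate numbers were given in accession order only.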
